A study of Homo sapiens with 3 samples.

Results

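AMPA and kainate receptors are the ion channels through which glutamate depolarises neurons at fast excitatory synapses. The genes described here are the 9 that encode their pore-forming subunits, GRIA1 to GRIA4 for AMPA receptors and GRIK1 to GRIK5 for kainate receptors. They were chosen by name, and all 9 were found, among 78932 genes in the deposited tables. RNA had been sequenced from 3 untreated, wild-type samples of iCell GlutaNeurons (iGluta), human glutamatergic neurons that are made from induced pluripotent stem cells and sold as a line, after 3 weeks of culture. The study set out to describe the cellular make-up of the culture and its receptors and channels. There is 1 group and no control, so levels were compared with fixed bars and with each other within a library. The labels do not say that the 3 samples came from separate cultures. The spread between them, on which errors and p-values rest, may therefore be technical.

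Each receptor is a ring of 4 subunits drawn from its own family. AMPA subunits combine freely, and the subunit encoded by GRIA2 blocks calcium entry once its messenger RNA has been edited at a single codon, called the Q/R site, where adenosine deamination changes a glutamine to an arginine. Among kainate subunits those encoded by GRIK1, GRIK2 and GRIK3 can form channels by themselves, whereas those of GRIK4 and GRIK5 bind kainate with high affinity but need one of the former as a partner. Messenger RNAs of GRIK1 and GRIK2 are also known to be edited at the matching codon.

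The coding sequences around that codon are shown because it is the feature on which the role of GRIA2 rests. Each line gives 60 bases in the direction of the messenger RNA, from the transcript with the longest coding sequence in GENCODE release 29 (GRCh38), with the Q/R codon in capitals. They are the unedited reference sequence and were not read from these cells.
GRIA1: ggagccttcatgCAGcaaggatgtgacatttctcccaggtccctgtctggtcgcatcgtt
GRIA2: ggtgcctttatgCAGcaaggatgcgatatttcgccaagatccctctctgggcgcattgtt
GRIA3: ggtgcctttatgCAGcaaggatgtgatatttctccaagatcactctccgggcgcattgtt
GRIA4: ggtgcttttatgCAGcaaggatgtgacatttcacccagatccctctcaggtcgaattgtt
GRIK1: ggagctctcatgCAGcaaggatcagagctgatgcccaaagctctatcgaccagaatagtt
GRIK2: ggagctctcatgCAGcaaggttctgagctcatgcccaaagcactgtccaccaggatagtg
GRIK3: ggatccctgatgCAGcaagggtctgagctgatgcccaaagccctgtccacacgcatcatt
GRIK4: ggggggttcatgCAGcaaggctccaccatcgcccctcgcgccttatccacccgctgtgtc
GRIK5: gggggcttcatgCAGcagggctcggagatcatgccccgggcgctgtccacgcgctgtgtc

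All 9 genes carry the same codon at this place, so the difference that editing makes to the protein is absent from the reference sequence. Of the 60 bases, GRIA3 shared 56 with GRIA2, GRIA4 shared 52 and GRIA1 shared 50. GRIK1 shared 52 bases with GRIK2, GRIK3 shared 48, GRIK5 shared 41 and GRIK4 shared 34. The codon is number 607 of the GRIA2 coding sequence, at chr4:157336722-157336724 on the plus strand in exon 11 of 16. It is number 636 in GRIK1, at chr21:29581429-29581431 on the minus strand in exon 13 of 18, and number 621 in GRIK2, at chr6:101924713-101924715 on the plus strand in exon 15 of 19. A gene-level count does not tell edited from unedited transcripts, so the level of editing was not analysed here.

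The genes are long and lie on 8 chromosomes of GRCh38.p14. GRIA1 (ENSG00000155511.19) spans 153489615 to 153813869 of chromosome 5, GRIA2 (ENSG00000120251.22) spans 157220120 to 157366075 of chromosome 4 and GRIA3 (ENSG00000125675.20) spans 123184278 to 123490915 of chromosome X. GRIA4 (ENSG00000152578.15) and GRIK4 (ENSG00000149403.13) share chromosome 11, at 105609994 to 105982090 and at 120511748 to 120988906. GRIK1 (ENSG00000171189.18) spans 29536933 to 29939996 of chromosome 21, GRIK2 (ENSG00000164418.22) spans 101393708 to 102070083 of chromosome 6, GRIK3 (ENSG00000163873.10) spans 36795527 to 37034515 of chromosome 1 and GRIK5 (ENSG00000105737.10) spans 41998324 to 42070206 of chromosome 19. Only GRIK1 and GRIK5 overlapped genes of more than 0.25 TPM in the GENCODE annotation, both on the opposite strand. These were BACH1 (13.9, 19.8 and 16.9 TPM in replicates 1, 2 and 3), which overlaps GRIK1, and ZNF574 (24.5, 23.8 and 19.4 TPM), which overlaps GRIK5. The library kit keeps the strand, but no source used here says whether the counting used it. On that ground GRIK1 and GRIK5 are less certain than the other subunits. Genes absent from that release were not checked for overlap.

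Estimated counts came to 41079348, 60092991 and 34732725 in replicates 1, 2 and 3, and no library had been deposited in duplicate. Replicate 3 stood apart: transcripts of the mitochondrial genome took 10.6% of its TPM (a transcript's share of the library, corrected for its length), against 4.25 and 4.01% in replicates 1 and 2. The cell label was checked against marker lists. Their counts are to be read beside the 40.6% of all genes tested and 71.2% of protein-coding genes above 1 TPM. All 7 pan-neuronal genes were above 1 TPM, with a summed 5956, 5950 and 5025 TPM in replicates 1, 2 and 3. Of 6 glutamatergic markers 3 were above 1 TPM, the vesicular glutamate transporter genes SLC17A6 (115 ± 40.6 TPM) and SLC17A7 (13.8 ± 5.30) and the transcription factor gene TBR1 (82.5 ± 9.91). SLC17A8 was at 0.61 ± 0.455 TPM and undecided, NEUROD2 was at 0.02 TPM and NEUROD6 was listed at 0. Of 8 GABAergic markers 7 were above 1 TPM, so RNA of another neuron type's markers was present. Their sum was 591 TPM on average, beside 212 TPM for the glutamatergic list. GAD1 (185 ± 60.0 TPM) and SLC32A1 (147 ± 53.0) had higher means than SLC17A6, but this order held only in replicates 1 and 2. SLC17A6 was at 80.7, 105 and 160 TPM in replicates 1, 2 and 3. GAD1 was at 203, 234 and 118 TPM and SLC32A1 at 181, 175 and 86.4, both under SLC17A6 in replicate 3. The lists therefore do not settle the cell label. Of 7 progenitor and dividing markers 3 were above 1 TPM, VIM (170 ± 83.8 TPM), PAX6 (72.3 ± 22.1) and NES (56.8 ± 27.6). The 3 below were HES1, TOP2A and MKI67, at means of 0.17, 0.123 and 0.0533 TPM. SOX2, at a mean of 0.86 TPM, was undecided. Among 6 astrocyte markers 1 was above the bar, with a sum of 4.03 to 6.14 TPM, and among 8 oligodendrocyte markers MBP alone was above. In bulk RNA, fewer cells of a type and less RNA per cell cannot be told apart.

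The 9 subunit genes together took 0.0511, 0.0594 and 0.0452% of all TPM, or 51124, 83432 and 39173 estimated counts. Each gene's mean level was tested against a bar of 1 TPM and a bar of 10 TPM with limma on log2(TPM + 0.1), adjusted over 38992 genes. The SE given with these tests rests on a variance that limma draws toward a trend shared over genes. It is therefore not the spread of that gene alone. All 9 were above 1 TPM, a bar that 40.6% of all genes tested and 71.2% of protein-coding genes passed. Of the 9, 8 were above 10 TPM, which 24.2% of all genes tested and 49.8% of protein-coding genes passed. GRIK4 was the exception and was below 10 TPM, as were 71.4% of all genes tested. By mean TPM the other 8 stood between the 65.9th percentile (GRIA4) and the 92.0th percentile (GRIK5) of all protein-coding genes, and GRIK4 stood at the 37.5th.

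Among the AMPA subunits, GRIA2 was at 101.7, 139 and 104 TPM in replicates 1, 2 and 3, a mean of 115 ± 20.7 (SD, n = 3), or 3.49 ± 0.10 (SE) log2 units over the higher bar (limma adjusted p = 4.29e-08). Replicate 2 was the high library, and replicates 1 and 3 were close. GRIA1, whose subunit carries a long cytoplasmic tail and is inserted into synapses during potentiation, was at 92.0, 109.9 and 68.1 TPM (90.0 ± 21.0), which is 3.13 ± 0.13 log2 units over 10 TPM (limma adjusted p = 1.79e-07). It was below GRIA2 in every library, by a log2 difference of 0.14, 0.33 and 0.61.

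GRIA3, an X-linked gene whose subunit joins with the GRIA2 subunit in forebrain neurons of rodents, was at 29.3, 37.3 and 30.2 TPM (32.2 ± 4.40). GRIA4, which encodes a fast subunit prominent in interneurons of rodents, was at 22.9, 26.7 and 20.1 TPM (23.2 ± 3.31). Both were lower than GRIA1 and GRIA2 in every library. They were above 10 TPM by 1.67 ± 0.10 and 1.20 ± 0.11 log2 units (SE; limma adjusted p = 1.48e-06 and 1.61e-05).

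Among the kainate subunits, GRIK5 had the highest mean TPM, and its coefficient of variation of TPM, 2.83%, was the smallest of the 9 genes. On CPM (counts divided by the total of the library, with no correction for length) GRIK3 was the highest (305 ± 53.3, against 216 ± 12.6 for GRIK5), and GRIK2 varied less than GRIK5 (86.0 ± 1.82). GRIK5 was at 120.8, 114 and 116 TPM (117 ± 3.32), 3.54 ± 0.07 (SE) log2 units over 10 TPM (limma adjusted p = 5.83e-09). GRIK4, its relative in the high-affinity subfamily, was at 1.92, 2.38 and 1.64 TPM (1.98 ± 0.37). GRIK4 rested on 218, 355 and 149 estimated counts. It was above 1 TPM by 0.90 ± 0.25 log2 units (SE; limma adjusted p = 0.00959), and the call was lost without replicate 1 (adjusted p = 0.102) or without replicate 2 (adjusted p = 0.118). GRIK5 exceeded GRIK4 by a log2 difference of 5.90, 5.53 and 6.06.

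Of the subunits that can form kainate channels without a partner, GRIK3, whose subunit has a low affinity for glutamate, was at 63.8, 79.1 and 51.0 TPM (64.6 ± 14.1). GRIK2, the subunit most widespread in the brain of rodents, was at 42.4, 46.3 and 36.8 TPM (41.8 ± 4.76). GRIK1, prominent in hippocampal interneurons of rodents, was at 36.03, 39.6 and 24.2 TPM (33.3 ± 8.05). In each of these 3 genes replicate 2 was highest and replicate 3 lowest. They were above 10 TPM by 2.66 ± 0.12, 2.05 ± 0.09 and 1.69 ± 0.14 log2 units in the order GRIK3, GRIK2 and GRIK1 (SE; largest limma adjusted p = 9.32e-06).

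**Figure D1:**
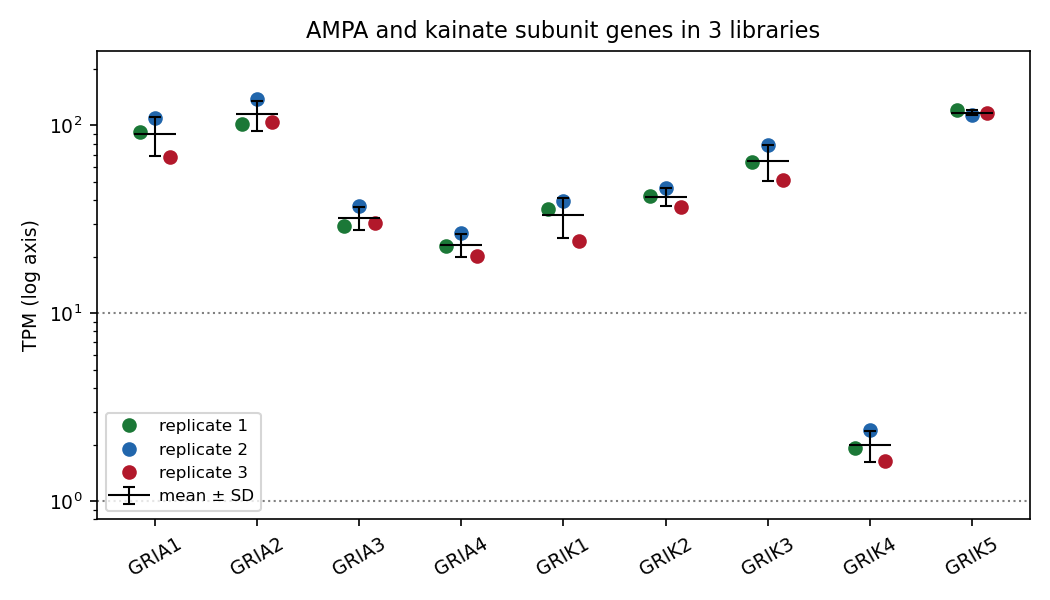
TPM (log axis) of the 9 subunit genes in replicates 1, 2 and 3 (coloured points), with the mean and SD in black and the bars of 1 and 10 TPM dotted. GRIK5 had the smallest coefficient of variation of TPM, and GRIK4, at 1.64 to 2.38 TPM, lay far below the other 8.

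By mean TPM the order was GRIK5, GRIA2, GRIA1, GRIK3, GRIK2, GRIK1, GRIA3, GRIA4 and GRIK4. A pair of genes was called resolved when the difference of log2(TPM + 0.1) had the same sign in all 3 libraries and its mean was over 2 SD from 0. Of 36 pairs 31 were resolved, and no share for pairs of other genes is given here to set beside this count. The smallest p that the exact 2-sided sign-flip permutation test can give with 3 libraries is 0.25, or 0.265 adjusted over the 36 pairs, so no pair could pass 0.05. Of the 8 neighbouring pairs in the order 4 were resolved: GRIA1 over GRIK3 (0.47 ± 0.06 SD), GRIK3 over GRIK2 (0.61 ± 0.15), GRIA3 over GRIA4 (0.47 ± 0.12) and GRIA4 over GRIK4 (3.49 ± 0.05).

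The other 4 neighbours did not differ beyond their spread. GRIK5 was above GRIA2 in replicates 1 and 3 and below it in replicate 2 (0.25, -0.28 and 0.16 on the log2 scale). GRIA2 exceeded GRIA1 by 0.36 ± 0.23 and GRIK2 exceeded GRIK1 by 0.35 ± 0.22, each with the same sign in 3 of 3 libraries but within 2 SD of 0. GRIK1 and GRIA3 changed places, at 0.30, 0.09 and -0.32. The remaining unresolved pair was GRIK5 and GRIA1 (0.41 ± 0.36).

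**Figure D2:**
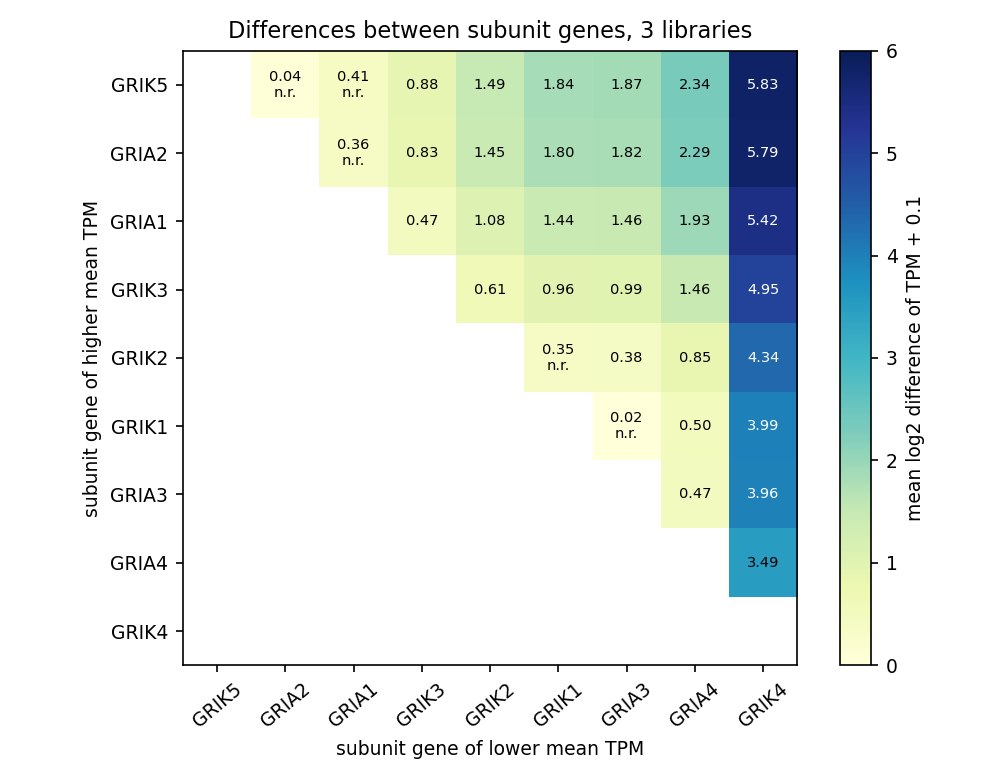
Mean log2 difference of TPM + 0.1 between each pair of subunit genes over the 3 libraries, with genes ordered by mean TPM and the higher gene in the row. Pairs marked n.r. were not resolved; these 5 pairs lie near the diagonal, and the GRIK4 column holds the largest differences, 3.49 to 5.83.

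Subunit shares show the make-up of each receptor family without the library total. In TPM, GRIA2 made up 41.4, 44.4 and 46.7% of the AMPA subunit RNA in replicates 1, 2 and 3 (44.1 ± 2.69%), so it was the most abundant AMPA subunit but under 50% in every library. GRIA1 made up 37.4, 35.2 and 30.7% (34.4 ± 3.45%). GRIA3 took 12.5 ± 0.958% and GRIA4 8.96 ± 0.394%. The GRIA2 share was highest and the GRIA1 share lowest in replicate 3.

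Counts are not divided by transcript length, and on counts the lead of GRIA2 over GRIA1 was not kept. GRIA1 took 45.9% of the AMPA counts in replicate 1 (95% Wilson interval 45.3 to 46.6) against 37.6% for GRIA2 (37.0 to 38.3). In replicate 2 they were level at 41.8% (41.3 to 42.3) and 42.0% (41.5 to 42.5), with 17088 and 17175 counts. In replicate 3 GRIA1 was at 36.6% (35.9 to 37.3) and GRIA2 at 45.1% (44.4 to 45.9). The mean count shares were 41.4 ± 4.68% and 41.6 ± 3.77%. These intervals cover counting error only, and the spread between libraries was several times wider.

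Within the kainate family GRIK5 made up 45.6, 40.6 and 50.5% of TPM (45.6 ± 4.97%), ahead of GRIK3 at 24.1, 28.1 and 22.2% (24.8 ± 3.01%). GRIK2 held 15.99, 16.4 and 16.03% (16.1 ± 0.242%). GRIK1 held 13.6, 14.04 and 10.5% (12.7 ± 1.91%), and GRIK4 0.725, 0.845 and 0.714%. On counts GRIK3 led in every library with 45.7, 50.2 and 41.5% (45.8 ± 4.35%), and GRIK5 followed with 32.7, 28.4 and 37.3% (32.8 ± 4.44%). GRIK2 held 12.5, 12.4 and 14.2% of counts (13.0 ± 0.986%), so its closeness between libraries in TPM was not seen on counts, and its Wilson interval in replicate 3 (13.7 to 14.6) lay above the others. No Wilson interval of a kainate count share was wider than 1.34 percentage points.

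**Figure D3:**
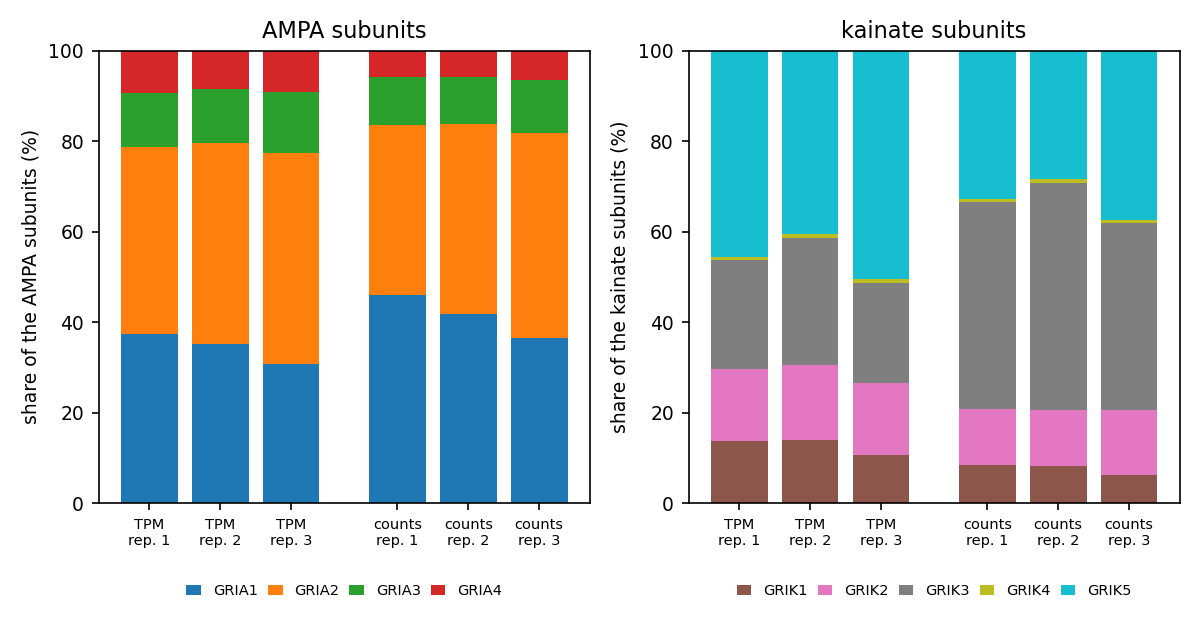
Share of each subunit gene in its family (%, vertical axis) for each library, in TPM (left 3 bars of each panel) and in estimated counts (right 3 bars). GRIA2 was the largest AMPA share in every library in TPM but not in replicate 1 in counts, and GRIK5 was the largest kainate share in TPM and GRIK3 the largest in counts.

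The 2 units differ by the division by transcript length. The length implied by counts per TPM, relative to the median gene of at least 10 mean TPM, was 4.11 for GRIK3 and 1.60 for GRIK5, 2.38 for GRIA1 and 1.86 for GRIA2. The annotated GRIK3 transcript with the longest coding sequence has 9101 bases, of which 2757 are coding, and that of GRIK5 has 3310 bases, of which 2943 are coding. Between libraries the implied length moved by a factor of 1.03 for GRIK3, GRIK5 and GRIA1 by 1.06 for GRIA2 and by 1.12 for GRIK2, and the median gene moved by 1.06. GRIA4 moved most among the 9, from 1.23 in replicate 1 to 1.36 and 1.41 in replicates 2 and 3.

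The pair order turned between TPM and CPM in 6 of 36 pairs. In 1 of them, GRIA1 and GRIK3, the pair was resolved in both units with opposite signs, at 0.47 in TPM and -0.32 in CPM. The others were GRIK5 with GRIA2, GRIA1 and GRIK3, GRIA2 with GRIK3, and GRIK1 with GRIA3. TPM is the scale on which levels of different genes are compared here.

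The balance of the kainate subfamilies was not resolved in TPM. GRIK4 and GRIK5 together, over GRIK1, GRIK2 and GRIK3 together, gave a log2 ratio of -0.21, -0.50 and 0.07 (mean -0.21 ± 0.29 SD; exact sign-flip permutation p = 0.5). The sign was not kept, and the ratio was not larger than the spread. GRIK4 held 0.761% of the kainate TPM on average, so the GRIK4 and GRIK5 side is almost all GRIK5. On CPM the ratio was -0.99 ± 0.28 and negative in 3 of 3 libraries (exact permutation p = 0.25). Within the subunits that need no partner, GRIK1 and GRIK2 together exceeded GRIK3 by 0.22 ± 0.09 in TPM (exact permutation p = 0.25) and were lower than it in CPM, at -1.15 ± 0.14.

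AMPA and kainate genes took similar parts of the RNA of all 18 ionotropic glutamate receptor genes. AMPA genes made up 35.4, 38.9 and 34.98% of their summed TPM (36.4 ± 2.13%) and kainate genes 38.1, 35.05 and 36.2% (36.5 ± 1.57%). The 7 NMDA receptor genes made up 19.2 ± 1.37% and the 2 delta receptor genes 7.89 ± 0.152%. On counts the AMPA, kainate and NMDA shares were 30.6 ± 1.05, 34.5 ± 1.45 and 28.5 ± 0.763%, so the NMDA share was higher than in TPM. The kainate share was above the AMPA share in every library on counts, whereas in TPM it was below it in replicate 2.

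The pattern of the subunit genes over the libraries was partly shared. Replicate 2 had the highest TPM for 8 of 9 genes, all but GRIK5 (7 of the 8 with a mean of at least 10 TPM), beside 50.2% of all genes with a mean of at least 10 TPM. Replicate 3 had the lowest TPM for 6 of 9, beside 57.3% of those genes, so this second share is near the background. GRIA2 and GRIA3 were lowest in replicate 1 and GRIK5 in replicate 2. The log2 of replicate 3 over the mean of replicates 1 and 2 was negative for all 9, with a median of -0.30, beside a median of -0.13 and 71.7% negative over 10288 genes. It was lowest for GRIK1 (-0.64), GRIA1 (-0.57) and GRIK3 (-0.49), which lay under the 10th percentile of those genes (-0.44), and it was -0.02 for GRIK5.

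With mitochondrial genes left out of the TPM total, the median over the subunits was -0.20, against -0.03 over 10499 genes of at least 10 mean TPM. Of the subunits 8 of 9 were negative, beside 54.9% of those genes. GRIK5 then stood at 0.08. With mitochondrial genes kept in, GABAergic markers were lower in replicate 3 as well: their summed level was 691, 734 and 349 TPM. Of these markers 8 of 8 were lower there than the mean of the other libraries, beside 71.7% of the 10288 genes. None was at 0, and their median log2 difference was -1.07. The glutamatergic list summed to 181, 205 and 251 TPM, with 3 of 6 lower in replicate 3. The progenitor list, almost all of its TPM from VIM, NES and PAX6, summed to 247, 251 and 403 TPM, with 3 of 7 lower in replicate 3. Of its 3 genes above 1 TPM, VIM (123, 120 and 267 TPM) and NES (38.05, 43.9 and 88.5) were higher there. PAX6 (84.5, 85.5 and 46.8 TPM) was lower. The part of the cell mixture or of the mitochondrial share in the lower subunit levels of replicate 3 was not tested.

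**Figure D4:**
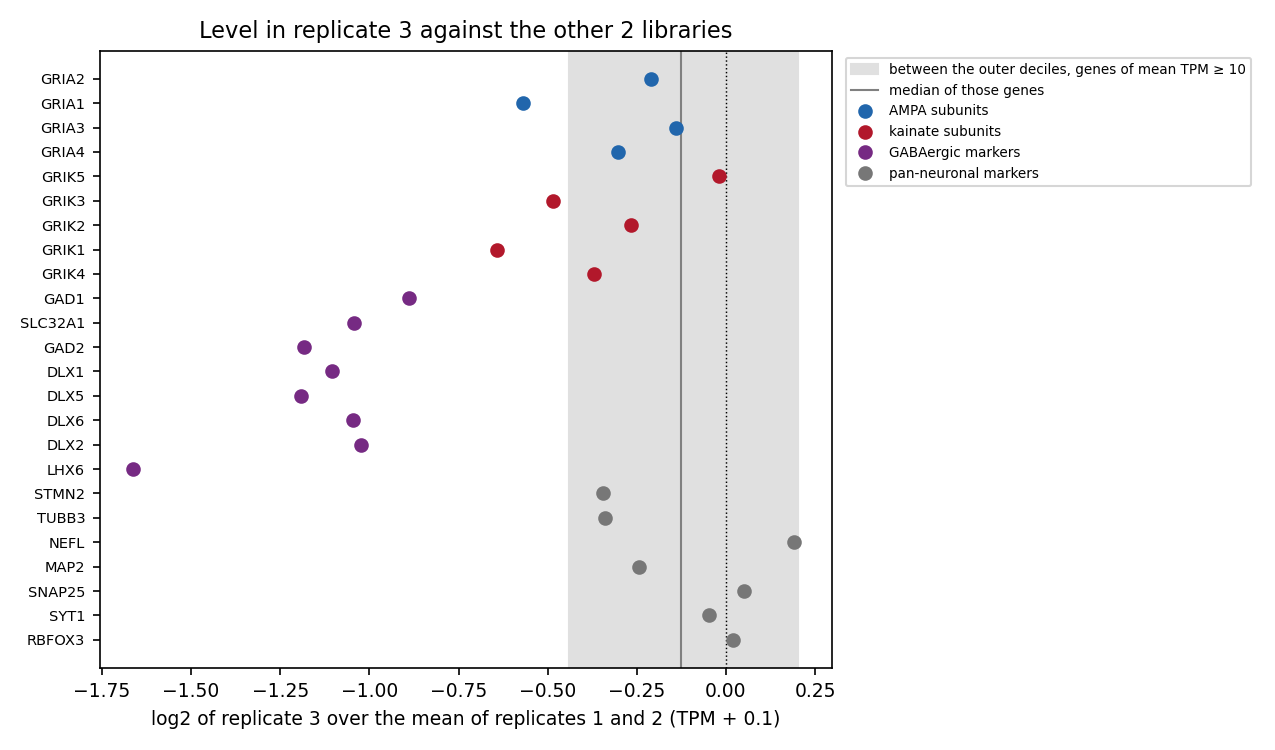
Log2 of replicate 3 over the mean of replicates 1 and 2 (TPM + 0.1, horizontal axis) for the subunit genes, the GABAergic markers and the pan-neuronal markers, with the range between the outer deciles (grey) and the median (grey line) of genes of at least 10 mean TPM. GRIK1, GRIA1 and GRIK3 lie left of the grey band, GRIK5 lies near 0, and the GABAergic markers lie further left than any subunit.

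The coefficient of variation of TPM was 18.0% at the median of the 9 genes, beside 10.6% over the 10288 genes, and GRIK5 alone was below that value. After edgeR's TMM scaling of the counts, the median biological coefficient of variation was 0.135 for the subunits, beside 0.131 over 10270 genes of at least 10 mean TPM. This is a tagwise estimate, which edgeR draws toward values shared between genes. Its nearness to the background therefore does not show that scaling removed the wider spread of TPM. The estimate was smallest for GRIK2 (0.109) and GRIK5 (0.112) and largest for GRIK4 (0.215), the gene with the fewest counts.

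Genes that assemble, edit, anchor or modulate these receptors, and the genes of the NMDA and delta receptors, were described by 7 lists of 52 genes. Of these, 50 were above 1 TPM, 1 was below and 1 undecided (limma, adjusted over all genes), beside 40.6% of all genes tested and 71.2% of protein-coding genes above that bar. In the same test 38 were above 10 TPM, 9 below and 5 undecided, beside 24.2% of all genes tested and 49.8% of protein-coding genes above. All 14 AMPA auxiliary genes were above 1 TPM and 8 were above 10, led by CNIH2, a cornichon that slows channel closing (409 ± 42.3 TPM), and CACNG4, a transmembrane regulatory protein (263 ± 30.4). The lowest were SHISA8 (4.97 ± 1.35 TPM) and GSG1L (2.14 ± 0.779). Their median was 24.6 TPM, beside 61.1 TPM for the AMPA subunits and 41.8 TPM for the kainate subunits.

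The kainate receptor has 2 auxiliary genes, NETO1 and NETO2, which slow its closing. NETO2 was at 35.5, 47.8 and 34.7 TPM (39.3 ± 7.31) and above 10 TPM. NETO1 was at 7.95, 7.70 and 12.9 TPM (9.50 ± 2.90) and undecided against that bar (limma adjusted p = 0.534). In log2 TPM, NETO2 exceeded NETO1 by 2.06 ± 0.60, with the same sign in every library (exact sign-flip permutation p = 0.25).

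Of the adenosine deaminases, ADARB1, the enzyme that edits the Q/R site of GRIA2, was at 25.9, 31.0 and 30.9 TPM (29.3 ± 2.89). ADAR was at 101.3, 121 and 98.2 TPM (106.9 ± 12.5), and ADARB2, a relative without known editing activity, at 42.1, 54.2 and 34.4 TPM (43.6 ± 9.99). All 3 were above 10 TPM, as were 49.8% of protein-coding genes. The level of an enzyme's RNA does not measure editing.

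All 7 genes listed under AMPA receptor assembly and exit from the endoplasmic reticulum were above 10 TPM, the bar that 49.8% of protein-coding genes passed. OLFM2 (294 ± 25.0 TPM) and CPT1C (164 ± 6.08) were the highest and SACM1L (35.9 ± 4.26) and ABHD6 (26.8 ± 2.30) the lowest. The list is a grouping made here, and these data do not show that OLFM2 acts in that step. Of 12 scaffold and trafficking genes 11 were above 10 TPM, to be read beside the same 49.8%. DLG4, which encodes PSD-95, the main scaffold of excitatory synapses (331 ± 15.6 TPM), and EPB41L1, a protein 4.1 relative that links GRIA1 to actin (267 ± 25.9), led this list. GRIP2, which binds the tails of the GRIA2 and GRIA3 subunits, was at 18.6 ± 1.91 TPM, and the kinase anchor AKAP5 was below 10 TPM at 4.70 ± 1.12.

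The levels of 5 secreted organisers ranged widely. NPTX2, a pentraxin that clusters AMPA receptors, was at 70.4, 66.2 and 236 TPM in replicates 1, 2 and 3, so replicate 3 set its mean, and its membrane-bound relative NPTXR was at 92.7, 95.9 and 87.0 TPM. C1QL3 and C1QL2, which recruit kainate receptors at mossy fibre synapses of mice, were below 10 TPM, at 2.50 ± 0.365 and 0.197 ± 0.0153 TPM. C1QL2 was the one gene of the 52 below 1 TPM. Among the other ionotropic receptor genes 5 of 9 were above 10 TPM, which is near the 49.8% of protein-coding genes above that bar. Levels of the 9 ran from GRIN3A (53.0 ± 5.47 TPM) and GRIN1 (37.0 ± 1.09) down to GRIN3B (2.16 ± 0.991) and GRIN2C (0.77 ± 0.173).

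**Figure D5:**
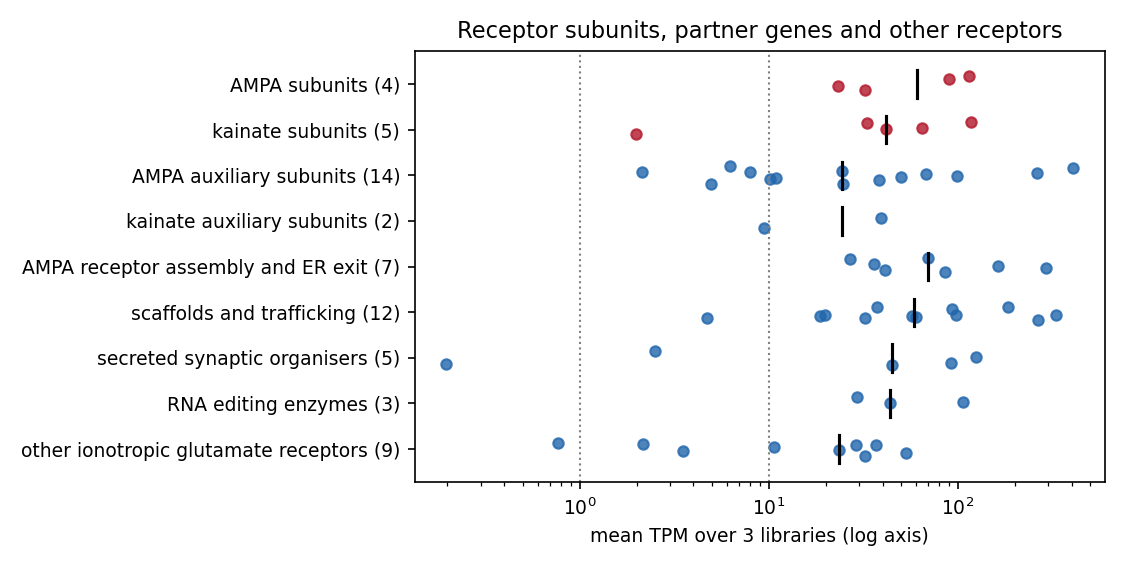
Mean TPM over 3 libraries (log axis) of the subunit genes (red) and of each gene of the 7 lists of partner and other receptor genes (blue, number of genes in brackets), with list medians as black strokes and the bars of 1 and 10 TPM dotted. Apart from GRIK4, the subunits lie above 20 TPM, and most of the other genes lie above 10 TPM.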

How the data were processed

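The authors deposited estimated counts and TPM per gene from RSEM (version not given) on GRCh38.p14, per the submitters' processing notes; for the aligner, annotation release, filters and strand setting, the sources used here give nothing. Per the labels' protocols, polyadenylated RNA was sequenced from strand-specific libraries as paired reads of 151 bp. The deposited TPM values sum to the same total in each library. Counts of 7 of the 9 subunits were whole numbers, and those of GRIA3 and GRIK1 lay within 0.09 of one.

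Levels were tested with limma 3.58.1 (intercept only, trend) on log2(TPM + 0.1) over the 38992 genes with any TPM, with Benjamini-Hochberg adjustment at 0.05. Variation was estimated with edgeR 4.0.16 on rounded estimated counts (TMM, filterByExpr, 19089 genes). Wilson intervals and permutations used scipy 1.17.1. Steps were tested on simulated data. Beside the 36 pairs, 6 ratios between genes or sums of genes were computed, and no exact p over 3 libraries can be under 0.25. Total counts of 34732725 to 60092991 limit precision, and a count of 0 allows 3 counts, or up to 0.0864 CPM.

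Samples were grouped by title. Members, lists, bars and tests were chosen with earlier results of these data known. Partner genes named are the 2 highest and 2 lowest of each list by mean TPM (all of lists of 3 or fewer), and marker genes outside that rule were named after their values were seen. Pseudocounts, filters, units, scaling and left-out replicates were varied.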

Additional observations from a re-analysis of the deposited data

How the results depend on the processing

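The number of subunits above 1 TPM ranged from 8 to 9 with 1 replicate left out, GRIK4 being the gene whose call was lost. It was 9 under each of the other 7 settings tried, and the number above 10 TPM was 8 under all 10. Among these settings, CPM was set against bars of 1 and 10 CPM, a different threshold because length is not divided out. Of 36 pairs, 29 were resolved on CPM, 28 when the mean had to be over 3 SD from 0, and 30 to 32 with 1 replicate left out. The GRIA2 share was 42.9 to 45.5% with 1 replicate left out and 41.6% on counts. The GRIK5 share was 43.1 to 48.1% with 1 replicate left out and 32.8% on counts, where length is not divided out. The ratio of GRIK4 and GRIK5 to GRIK1, GRIK2 and GRIK3 was -0.36 to -0.07 with 1 replicate left out and -0.99 on CPM, where it was over 2 SD from 0. The median biological coefficient of variation was 0.103 to 0.151 with 1 replicate left out. No paired analysis was possible because there is 1 group. GRIK4 had the fewest counts of the 9 subunits, 149 to 355, and whether depth limits it was not tested.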

Other observations

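The genes whose log2 TPM, centred over the 3 libraries, lay closest to that of GRIA2 among 10302 genes of at least 10 mean TPM were DCTN5, a dynactin subunit, DCX, a microtubule protein of immature neurons, and ST8SIA4, a polysialyltransferase, at root mean square distances of 0.00026, 0.0045 and 0.0051. With 3 libraries such closeness is common: 302 genes lay within 0.05 of GRIA2, GRIA3 among them at 0.0493, while GRIA1 lay at 0.19. For GRIK5, 1144 genes lay within 0.05, led by POLR1D, an RNA polymerase subunit, and no other AMPA or kainate subunit was among them, GRIK2 being the closest at 0.144.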
